A study of Rattus norvegicus with 8 samples.

Results

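The transcripts of 10 genes of oxygen sensing and glucose uptake were measured in adrenals taken from neonatal rats at postnatal day 7. They were the subunits of the hypoxia-inducible factors (Hif1a, Epas1, Arnt and Hif3a), the proteins that set their stability (Egln1, Egln3 and Vhl) and 3 glucose transporters (Slc2a1, Slc2a3 and Slc2a4). The genes were picked by their symbols in the platform annotation, and every probe set that carried 1 of these symbols alone was taken. This gave 15 probe sets of 15866 that were not controls, and 10 of the 10411 genes named on the array. Hypoxic pups had lived with their dams in 12% O2 since birth, and normoxic pups in room air. Each group had 4 samples, each a pool of 24 decapsulated glands hybridised to a separate array in 1 colour. The sources used here do not give strain, sex or how litters were spread over pools. The p-values measure the spread between pools, and the labels do not say how many separate litters those pools hold.

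A hypoxia-inducible factor is a pair of proteins, an oxygen-labile alpha subunit and the stable partner ARNT. In the presence of oxygen the EGLN prolyl hydroxylases mark the alpha subunit, and VHL, the recognition part of a ubiquitin ligase, then sends it for destruction. In low oxygen the alpha subunit persists, enters the nucleus with ARNT and switches on genes of glycolysis, glucose uptake and vessel growth. Most of this control acts on the protein, and the arrays measured RNA only. In the adrenal gland EPAS1, also called HIF-2 alpha, is known for its place in the chromaffin cells of the medulla.

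Hypoxia-inducible factors bind DNA at a core of the letters ACGTG or GCGTG. Both were searched on both strands in the promoter windows of RefSeq (assembly GRCr8), which run from 250 bases before to 50 after the start of a gene. Windows were found for 8 of the 10 members, 9 windows in all because Hif3a had more than 1, and those of Slc2a3 and Slc2a4 were not used here. ACGTG stood in windows of 3 of these 8 members (Hif1a, Egln1 and Slc2a1), and in 19.3% of all 33469 windows of the same length. GCGTG stood in windows of 4 of the 8 members (Hif3a, Arnt, Egln1 and Slc2a1), and in 29.7% of all windows. The windows of Epas1, Egln3 and Vhl held neither. The windows of Hif1a (chr6:98359648-98359947, plus strand) and Slc2a1 (chr5:138002272-138002571, plus strand) are shown because they held the most matches, 3 of ACGTG in Hif1a, and 1 of ACGTG with 3 of GCGTG in Slc2a1. Capitals mark the matches in the sequences below, and each is read 5′ to 3′.
Hif1a: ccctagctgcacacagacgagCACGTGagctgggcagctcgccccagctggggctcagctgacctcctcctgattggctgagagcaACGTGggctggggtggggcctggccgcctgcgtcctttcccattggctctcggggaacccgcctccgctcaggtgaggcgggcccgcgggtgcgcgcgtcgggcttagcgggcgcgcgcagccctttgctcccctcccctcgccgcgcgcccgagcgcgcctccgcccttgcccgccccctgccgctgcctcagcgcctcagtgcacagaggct
Slc2a1: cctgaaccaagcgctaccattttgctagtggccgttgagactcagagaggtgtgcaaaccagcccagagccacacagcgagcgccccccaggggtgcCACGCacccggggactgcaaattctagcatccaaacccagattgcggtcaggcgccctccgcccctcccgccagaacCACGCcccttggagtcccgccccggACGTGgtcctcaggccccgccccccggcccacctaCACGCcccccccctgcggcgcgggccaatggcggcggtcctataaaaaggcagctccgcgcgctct
In Hif1a the first capital run is a palindrome that holds 2 overlapping matches, on opposite strands. A match describes the letters only, and no binding was measured in these glands.

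Intensities are in arbitrary units, and the authors had scaled them to a common mean on every array. The array's probes for bacterial sequences had a 95th percentile of 46.7, used here as the level of background. Changes are hypoxic minus normoxic on the scale of log2(intensity + 16), where the offset shrinks the change of dim ones, and probe sets with a mean signal under 95.2 were not tested. Of the 15 probe sets 11 were tested, standing for 8 genes. Hif3a, Egln3 and the dimmer probe sets of Hif1a and Egln1 fell below that limit and are given by their values. Array medians differed by at most 0.117 on the log2 scale. Markers of the labelled tissue were bright: among cortical genes Cyp21a1 averaged 24421 ± 6614 in hypoxic and 23345 ± 3312 in normoxic pools, and among chromaffin genes Pnmt averaged 10270 ± 2071 in hypoxic and 9615 ± 1658 in normoxic pools (SD, n = 4 each). The brown fat gene Ucp1 read 510.7, 92.3, 359.8 and 386.1 in hypoxic pools 1 to 4, against 1675.2, 388.8, 381.2 and 1820.3 in normoxic pools 1 to 4. Normoxic pools 1 and 4 were the highest for Ucp1, and the groups overlapped. In pooled tissue, fewer cells of a type and less RNA per cell cannot be told apart.

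None of the 8 genes with a tested probe set passed the test between hypoxic and normoxic glands, and Hif3a and Egln3 were not tested. In limma 0 of the 11 tested probe sets had an adjusted p under 0.05, where 0.18% of all 11106 tested probe sets did (0.117% higher and 0.063% lower), and 1 of the 11 had an unadjusted p under 0.05, where 8.64% of all did. The lowest adjusted p was 0.253, for Slc2a3, and the next was 0.613, for Hif1a. The median log2 change of the 11 was -0.0069, against -0.019 for all tested probe sets, with 5 above 0 and 6 below. In 2 of the 11, Slc2a3 and Hif1a, the 4 hypoxic values did not overlap the 4 normoxic values, and such a separation held for 5.39% of everything tested. The standard errors ran from 0.089 for Hif1a to 0.27 for the dimmer probe set of Slc2a3, so the precision differed by gene.

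**Figure D1:**
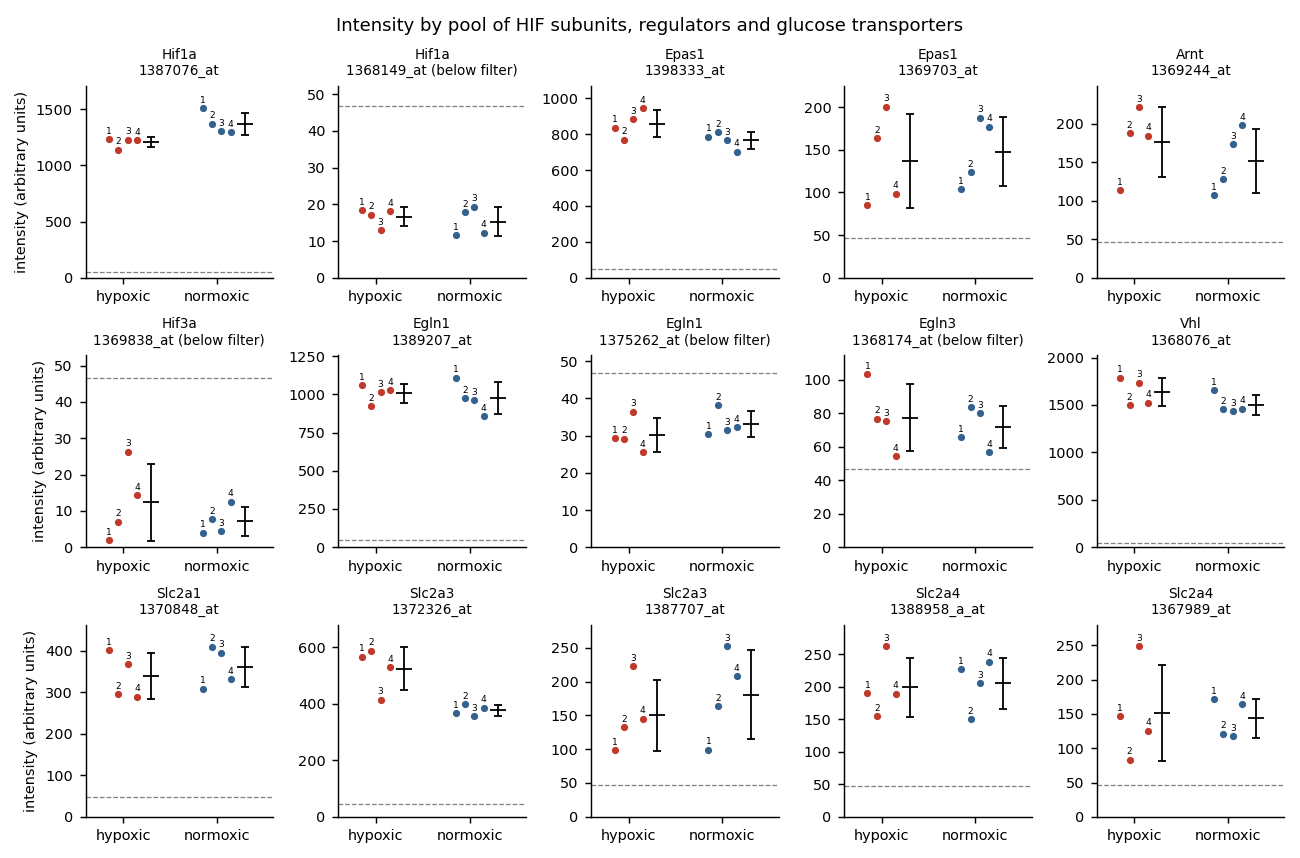
Intensity in arbitrary units of each of the 15 probe sets, 1 point per pool with its number, hypoxic pools at the left of each panel and normoxic pools at the right, bars giving mean ± SD of 4 pools. The dashed line is the background level of 46.7, and only Hif1a 1387076_at and Slc2a3 1372326_at show groups that do not overlap.

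**Figure D2:**
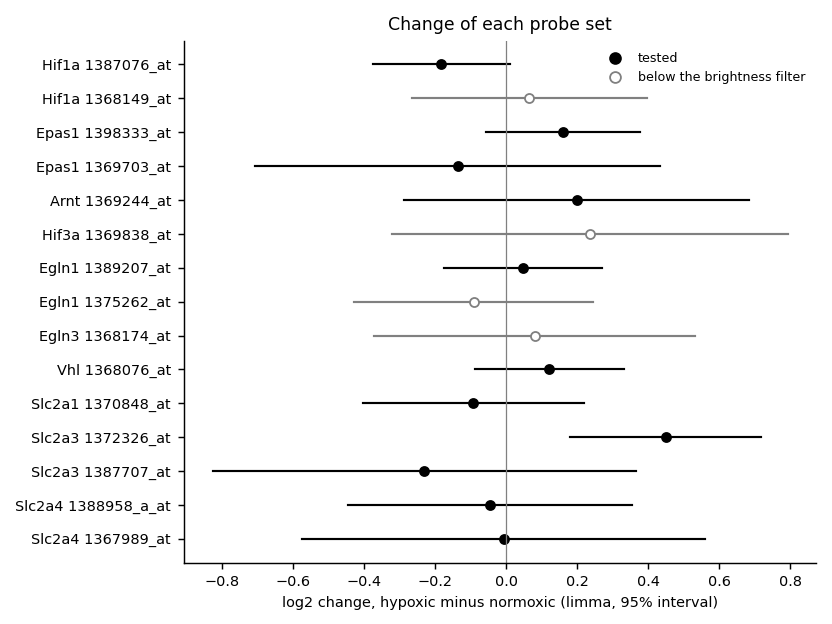
Log2 change, hypoxic minus normoxic, of each probe set with its 95% interval from limma, filled where the probe set was tested and open where it was below the brightness limit. The readings of Hif3a, Hif1a 1368149_at and Egln1 1375262_at were below background, and the interval of Slc2a3 1372326_at, from 0.18 to 0.72, is the only one of the 15 that leaves out 0.

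Hif1a encodes the alpha subunit found in nearly all cells. Its bright probe set, 1387076_at, read 1230.2, 1139.2, 1226.9 and 1220.9 in hypoxic pools 1 to 4, against 1508.6, 1372, 1305 and 1294.6 in normoxic pools 1 to 4. Every hypoxic pool lay below every normoxic pool, and the normoxic pools were spread more widely. The means were 1204 ± 43.6 in hypoxic and 1370.1 ± 98.5 in normoxic glands (SD, n = 4 pools each). The log2 change was -0.18, with standard error 0.089 and a 95% interval from -0.37 to 0.01 (limma, adjusted p = 0.613). Hypoxic-lower separation of this kind was seen in 2.64% of all tested probe sets. The change lay between -0.21 and -0.14 with any 1 pool left out, and was -0.06 when both probe sets of the gene, one of them below background, were averaged. A second probe set, 1368149_at, stayed between 11.6 and 19.4 in all pools, below background, and gave no usable reading.

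Epas1, the alpha subunit of HIF-2, leaned the other way on its bright probe set. At 1398333_at the hypoxic pools read 837.1, 769, 885 and 946.5, against 787.4, 810.8, 765.9 and 702.2 in the normoxic pools. Hypoxic pools 1, 3 and 4 lay above all normoxic pools, and hypoxic pool 2 lay among them. The means were 859.4 ± 75.1 in hypoxic and 766.6 ± 46.7 in normoxic glands, a log2 change of 0.16 with an interval from -0.06 to 0.38 (limma, adjusted p = 0.703). Averaged over both probe sets of the gene the change was 0.012. The dimmer probe set, 1369703_at, read 84.8, 163.5, 200.7 and 98.5 in hypoxic pools and 103.5, 123.6, 187.6 and 176.8 in normoxic pools. Its values ranged widely within both groups, and its log2 change was -0.14 with an interval from -0.71 to 0.43.

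The changes of the alpha subunits were compared with each other within each pool, as were those of the hydroxylases and of the transporters, 7 pairs in all. Such a difference of changes does not set the level of one probe set against another. Epas1 minus Hif1a was 0.34 higher on the log2 scale in hypoxic than in normoxic pools. The difference was higher in 4 of 4 hypoxic pools than in any normoxic pool, with an exact permutation p of 0.0286, two-sided, the smallest that 4 against 4 pools can give, and an adjusted p of 0.2 over the 7 pairs. A lone pair at that smallest p cannot fall under 0.05 after this adjustment, so failing it says little. With 1 pool left out the difference lay between 0.30 and 0.37. When the probe sets of each gene were averaged, the dim ones included, it was 0.070.

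Hif3a encodes another alpha subunit, known from other work for forms that dampen the response. Its only probe set read 2, 7, 26.3 and 14.3 in hypoxic pools and 4, 7.7, 4.4 and 12.5 in normoxic pools, all below the background of 46.7. Hif3a was therefore not detectable on these arrays in either group, and its fitted change is no measure of the gene. The pairs of Hif3a with Hif1a and with Epas1, counted among the 7, set such readings against others and are no measure of the gene.

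Arnt encodes the shared partner of the alpha subunits. It read 113.2, 187.2, 221.3 and 184.5 in hypoxic pools, against 106.9, 128.2, 173.3 and 198 in normoxic pools. Pool 1 was the lowest of its group in both conditions, and the groups overlapped. The log2 change was 0.20 with an interval from -0.29 to 0.69 (limma, adjusted p = 0.859). With 1 pool left out the change lay between 0.062, without normoxic pool 1, and 0.38, without hypoxic pool 1.

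Among the regulators, Egln1, which encodes PHD2, the main oxygen-sensing hydroxylase in most cells, had overlapping groups. Its bright probe set read 1059.9, 920.8, 1013.4 and 1028.5 in hypoxic pools and 1109.2, 974.6, 962.1 and 855.6 in normoxic pools. The log2 change was 0.05 with an interval from -0.17 to 0.27 (limma, adjusted p = 0.935), and the second probe set stayed between 25.6 and 38.2, below background. Egln3, which encodes PHD3 and is itself a well-known target of the factors, was dim, at 103.2, 76.7, 75.3 and 54.2 in hypoxic pools and 65.5, 83.5, 80.1 and 56.7 in normoxic pools. All 8 values were above the background of 46.7, the highest was hypoxic pool 1, and the groups overlapped. The highest single reading of the bacterial probes was 83.5, and only hypoxic pool 1 exceeded it. Its log2 change in the fit without the brightness limit was 0.08 with an interval from -0.37 to 0.53 (limma, adjusted p = 0.965). The change of Egln3 minus that of Egln1 was 0.033 (exact permutation p = 0.886, adjusted p = 0.943).

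Vhl was among the bright members. It read 1787.6, 1499.4, 1737.1 and 1526 in hypoxic pools, against 1658.4, 1452.5, 1432.4 and 1462 in normoxic pools. Hypoxic pools 1 and 3 lay above all normoxic pools and hypoxic pools 2 and 4 did not. The means were 1637.5 ± 146.0 in hypoxic and 1501.3 ± 105.4 in normoxic glands, with a log2 change of 0.12 and an interval from -0.09 to 0.33 (limma, adjusted p = 0.785).

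The transporters differed in what their probe sets showed. Slc2a1 encodes GLUT1, the carrier of basal glucose uptake and a classical target of the factors. It read 402.1, 295.7, 368.4 and 289.8 in hypoxic pools, against 309, 410.3, 395.2 and 331.6 in normoxic pools. The groups covered nearly the same range, with means of 339 ± 55.2 in hypoxic and 361.5 ± 48.9 in normoxic glands. The log2 change was -0.09 with an interval from -0.40 to 0.22 (limma, adjusted p = 0.901), whose upper end is a fold of 1.16.

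Slc2a3 encodes GLUT3, a carrier of high affinity that is best known from neurons. Its bright probe set, 1372326_at, read 567.2, 587.5, 415.3 and 530.1 in hypoxic pools, against 366.5, 398.9, 357.1 and 386.4 in normoxic pools. All hypoxic values were above all normoxic ones, and hypoxic pool 3 was close to the normoxic range. The means were 525 ± 76.9 in hypoxic and 377.2 ± 18.9 in normoxic glands (n = 4 pools each). The log2 change was 0.45, its standard error 0.12 and the fold 1.37 (limma, unadjusted p = 0.00342, adjusted p = 0.253). Hypoxic-higher separation of this kind was seen in 2.76% of all tested probe sets. The change lay between 0.39 and 0.55 with any 1 pool left out, and was 0.11 when both probe sets of the gene were averaged (limma, adjusted p = 0.873).

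The second probe set of Slc2a3, 1387707_at, had overlapping groups. It read 98.4, 132.8, 223.2 and 145.4 in hypoxic pools, against 99, 163.8, 252.9 and 208 in normoxic pools, a log2 change of -0.23 with an interval from -0.83 to 0.37 (limma, adjusted p = 0.864). With 1 pool left out the change lay between -0.47, without normoxic pool 1, and -0.058, without normoxic pool 3. Pool 1 was lowest and pool 3 highest in both groups. These values followed the ratio of the 5′ to the 3′ probe sets of beta-actin on the same array, a sign of RNA integrity. That ratio was 0.251, 0.493, 0.713 and 0.529 in hypoxic pools and 0.414, 0.598, 0.745 and 0.675 in normoxic pools. The order of the 8 pools was the same for both measures (Spearman rho = 1, exact permutation p = 4.96e-05, the smallest that 8 pools can give; Pearson r = 0.90, exact permutation p = 7.44e-05). After adjustment over all 15 probe sets the p for r was 0.00112, and without the 2 pools farthest from the median ratio r was 0.99. Deviations from the group means gave r = 0.90. Over all tested probe sets the median r was 0.006 and 1.01% had an r above 0.9. This relation was looked for after the values were seen. With the 5′ to 3′ ratio of Gapdh, another sign of RNA integrity, the r of this probe set was 0.27.

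**Figure D3:**
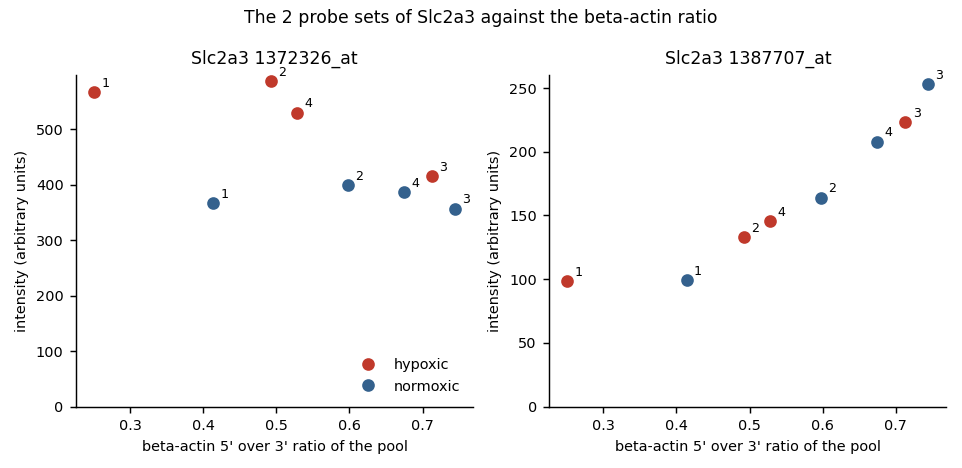
Intensity in arbitrary units of each of the 2 probe sets of Slc2a3 against the beta-actin 5′ over 3′ ratio of the pool, with hypoxic pools in red, normoxic pools in blue and pool numbers beside the points. At 1387707_at the points of both groups follow the ratio, and at 1372326_at the hypoxic pools lie above the normoxic pools.

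Among the other probe sets, only the dim one of Epas1 passed the same adjustment against the beta-actin ratio (r = 0.82, exact permutation p = 0.0057, adjusted p = 0.0428), with rho = 0.86 (exact permutation p = 0.0107, adjusted p = 0.0804) and r = 0.65 without hypoxic pool 1 and normoxic pool 1. That call was lost without 7 of the 8 pools in turn, with r between 0.759 and 0.894 over the sets of 7 pools. The adjustment covered the 15 member probe sets alone, and 4.1% of all 11106 tested probe sets had an r above 0.8. Arnt had r = 0.71 (exact permutation p = 0.0361, adjusted p = 0.181), which was 0.19 without hypoxic pool 1 and normoxic pool 1. The bright probe set of Slc2a3 had r = -0.58 (exact permutation p = 0.117, adjusted p = 0.296) and rho = -0.52 (exact permutation p = 0.197, adjusted p = 0.369), and without hypoxic pool 1 and normoxic pool 1 its r was -0.92. With that ratio added to the limma model, a setting added after the data were seen, the bright probe set of Slc2a3 had a log2 change of 0.39 (limma, adjusted p = 0.276) and its other probe set one of 0.067. Hif1a then had a change of -0.21, Arnt one of 0.43 and the dim probe set of Epas1 one of 0.12. The beta-actin ratio itself averaged 0.496 ± 0.19 in hypoxic and 0.608 ± 0.142 in normoxic pools (exact permutation p = 0.4, two-sided, n = 4 each). With the Gapdh ratio r was 0.079 for the dim probe set of Epas1, 0.055 for Arnt and -0.34 for the bright one of Slc2a3.

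Slc2a3 minus Slc2a1 was 0.54 higher in hypoxic pools on the log2 scale, with overlap between the groups (exact permutation p = 0.0857, adjusted p = 0.3 over the 7 pairs). Slc2a3 minus Slc2a4 was 0.49 higher (exact permutation p = 0.171, adjusted p = 0.4). With the probe sets of each gene averaged these differences were 0.20 and 0.14. Neither difference passed, but with 4 against 4 pools and 7 pairs the adjusted test could hardly pass. It therefore cannot decide whether Slc2a3 differed from the other carriers in its change. Slc2a3 was also set against markers of cells in which GLUT3 can be found. Against the mean of 13 leukocyte markers r was -0.65 over the 8 pools and Spearman rho -0.62 (exact permutation p = 0.0552 and 0.115, adjusted p = 0.147 and 0.23), and r was -0.33 without hypoxic pool 2 and normoxic pool 4. Against 14 chromaffin markers r was 0.48 and rho 0.52 (exact permutation p = 0.217 and 0.197, adjusted p = 0.348 and 0.315), with r = 0.18 without hypoxic pool 4 and normoxic pool 1 and r = -0.26 for the deviations from the group means.

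Slc2a4 encodes GLUT4, the insulin-dependent carrier of fat and muscle. Its brighter probe set, 1388958_a_at, read 190.3, 154.3, 262.6 and 189.1 in hypoxic pools, against 226.5, 149.8, 205.7 and 238.7 in normoxic pools. The other, 1367989_at, read 146.9, 83.4, 249.3 and 125.3 in hypoxic pools and 171.6, 121, 117.6 and 164.2 in normoxic pools. On both probe sets the highest pool was hypoxic pool 3 and the groups overlapped, with log2 changes of -0.04 (interval -0.44 to 0.36) and -0.0069 (interval -0.58 to 0.56). The brighter probe set was set against markers of fat. Over the 8 pools it and the mean of 9 adipose markers had r = 0.80 and rho = 0.86 (exact permutation p = 0.0201 and 0.0107, adjusted p = 0.081 and 0.0857 over 8 relations), so the relation did not pass the adjustment. Without hypoxic pool 2 and normoxic pool 1 r was 0.75, and for the deviations from the group means it was 0.84. The summed intensity of the 9 adipose markers ran from 3702 to 9796 in hypoxic and from 4977 to 13299 in normoxic pools, and all 9 had a log2 change below 0, with a median of -0.18 and 0 past the test. At an unadjusted limma p under 0.05, 2 of the 9 were lower, where 4.48% of all tested probe sets were. Of the 15 muscle genes on the array only 3 reached the brightness limit, and their mean had r = 0.63 and rho = 0.67 with Slc2a4 (exact permutation p = 0.099 and 0.0831, adjusted p = 0.198 and 0.23), with r = 0.57 without hypoxic pools 2 and 4. In hypoxic and normoxic pools Ckm averaged 116 and 142, Tnni2 177 and 164, and Myh1 3833 and 3870. The other probe sets of Myh1 had log2 changes of -0.31, 0.07, 0.23 and -0.03. How well this mean reads muscle was not tested. With the adipose mean as a covariate, the log2 changes of Slc2a4 were 0.15 on the brighter and 0.30 on the other probe set (limma, adjusted p = 0.856 and 0.744).

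**Figure D4:**
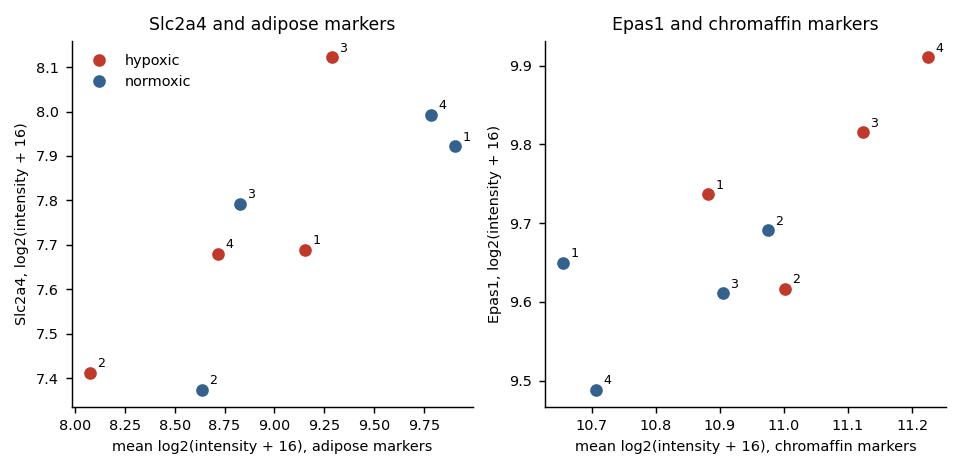
Slc2a4 against the mean of 9 adipose markers (left) and Epas1 against the mean of 14 chromaffin markers (right), each point a pool on the scale of log2(intensity + 16), hypoxic pools in red and normoxic pools in blue. Both relations rise over the 8 pools, with r of 0.80 and 0.79, and neither passed adjustment over 8 relations. With the probe sets of each gene averaged, r was 0.81 for Slc2a4 and 0.38 for Epas1.

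Epas1 was set against chromaffin and endothelial markers, the cells it is best known from. With the mean of 14 chromaffin markers the bright probe set had r = 0.79 and rho = 0.62 (exact permutation p = 0.0202 and 0.115, adjusted p = 0.081 and 0.23). Without hypoxic pool 4 and normoxic pool 1 r was 0.81, and for the deviations from the group means it was 0.62. At their brightest probe sets all 14 chromaffin genes had a log2 change above 0, where 45.2% of all tested probe sets did. The median was 0.21, with 0 past the test, and the summed intensity ran from 45384 to 61840 in hypoxic and from 38944 to 51197 in normoxic pools. Less bright probe sets of Ddc and Gch1 had changes of -0.06 and -0.15, and that of Hand2 had 0.07. The part of the chromaffin genes in the reading of Epas1 was not tested. With 10 endothelial markers Epas1 had r = -0.12 and rho = -0.21 (exact permutation p = 0.744 and 0.619, adjusted p = 0.85 and 0.708), and r = 0.11 without hypoxic pool 1 and normoxic pool 2. Here r was 0.53 with the probe sets of each gene averaged (exact permutation, adjusted p = 0.46). Slc2a1 was set against 3 erythroid markers, with r = -0.39 and rho = -0.45 (exact permutation p = 0.323 and 0.267, adjusted p = 0.431 and 0.357), and r = 0.42 without normoxic pools 2 and 3. The relation of Hif3a with adipose markers had r = 0.070 (exact permutation p = 0.877) and rests on values below background.

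The other markers of cells in these pools gave 0 calls as well. Of 13 leukocyte genes 4 had a log2 change above 0 and 9 below, with a median of -0.18, and their summed intensity ran from 5434 to 6761 in hypoxic and from 6142 to 7556 in normoxic pools. At an unadjusted limma p under 0.05, 3 of these were lower, against 4.48% of all tested probe sets, and 0 higher. C1qa and C1qc had no overlap between groups (log2 -0.42 and -0.34, limma, adjusted p = 0.304 and 0.438). Hypoxic-lower separation of this kind held for 2.64% of all tested probe sets. Of 10 endothelial genes 5 were above 0 and 5 below, with a median of 0.02. Pecam1 had the lowest p (log2 -0.53, limma, adjusted p = 0.238) and was the 1 of the 10 without overlap, lower in hypoxic pools. Of 6 erythroid genes on the array 3 reached the brightness limit, and these were all above 0 at their brightest probe sets, with a median of 0.42. The 8 cortical genes had 6 above 0 and 2 below, with a median of 0.02. Of the erythroid genes 2 were higher at an unadjusted limma p under 0.05, where 4.16% of all tested probe sets were. Slc4a1 was 1 of these, and its other tested probe set had a log2 change of -0.04 (limma, adjusted p = 0.983). The 3 muscle genes had 1 above 0 and 2 below, with a median of -0.0093. The part of these cells in the readings of the transporters was not tested beyond the relations given.

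For each of the 8 tested genes, the named genes whose log2 values followed it most closely over the 8 pools were looked up among 8003 genes. Hif1a was followed by Ppt1 (r = 0.96) and Stk25 (0.94), Epas1 by Pacsin2 (0.95) and Ifi30 (0.95), and Arnt by Mrps2 (0.94) and Dhx30 (0.93). Egln1 was followed by Cln8 (0.96) and Stab1 (0.91), and Vhl by Rptor (0.98) and Lats1 (0.95). Among the transporters Slc2a1 was followed by H1f4 (0.97) and Msantd3 (0.96), Slc2a3 by Alg2 (0.96) and Ngb (0.95), and Slc2a4 by Glul (0.96) and Hrct1 (0.93). With 8 pools and 8003 genes searched, values this high are a description of these arrays. After the group means were taken off, r for Slc2a3 was 0.86 with Alg2 and 0.87 with Ngb. Alg2 had a log2 change of 0.39 (limma, adjusted p = 0.167) and Ngb, the neuroglobin gene, one of 0.52 (adjusted p = 0.347).

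Genes of the proteins that work beside the members gave no call. Of 20 measured partners and regulators of the factors, 0 passed, 8 had a log2 change above 0 and 12 below, and the median was -0.019, with -0.019 for all tested probe sets. Each gene was counted at its brightest tested probe set, and there 0 had an unadjusted p under 0.05 in limma. A less bright probe set of Rbx1, a subunit of the VHL ligase, named after its value was seen, had a log2 change of 0.36 (limma, adjusted p = 0.328) and an unadjusted p below that limit. Among the brightest probe sets the lowest p belonged to the coactivator gene Crebbp, at 472.5 ± 24.0 in hypoxic and 396.15 ± 65.4 in normoxic pools (log2 0.26, adjusted p = 0.607). Siah1, a ubiquitin ligase that acts on the hydroxylases, had a change of -0.38, with all hypoxic values between 144.9 and 155.9 and normoxic values between 132.9 and 295.8. Without normoxic pool 4 the change of Siah1 was -0.20, and without normoxic pool 3 it was -0.56. Eloc, which joins VHL to its ligase, had a change of 0.18, the transcription factor gene Bhlhe40 one of 0.31, and Os9, studied for a link to HIF-1 alpha degradation, one of -0.44. For Os9 hypoxic pool 1, at 61.1, was far below the other pools, which lay between 203.2 and 421.2, and without that pool the change was 0.079.

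Target genes of the factors leaned higher in hypoxic glands, without a call over all probe sets. Of 34 measured targets 24 had a log2 change above 0, against 45.2% of all tested probe sets, and the median was 0.14, against -0.019. In limma 0 passed, while 6 were higher and 1 lower at an unadjusted p under 0.05, where 4.16% of all tested probe sets were higher and 4.48% lower by that rule. These counts take the brightest tested probe set of each gene. Among the less bright ones, named after their values were seen, Flt1 had a probe set at 0.47 (limma, adjusted p = 0.503) and Cxcr4 one at -0.22 (adjusted p = 0.56), both past the unadjusted limit, as was the other probe set of Lox. The chromaffin genes moved beside the targets at their brightest probe sets, with 14 of 14 above 0 and a median of 0.21. Of these, 6 of 14 were higher at an unadjusted limma p under 0.05, and less bright probe sets of Ddc and Gch1 were below 0. The part of the chromaffin genes in the target readings was not tested. The lowest p belonged to genes of glycolysis and to Lox. Ldha, which makes lactate, read 5047.5, 4261, 4783.8 and 4917.7 in hypoxic pools and 3651.8, 3721.9, 3513.8 and 4111.8 in normoxic pools, with no overlap (log2 0.34, adjusted p = 0.244). Aldoa, an aldolase, had 11073 ± 699 in hypoxic and 8457 ± 1047 in normoxic pools (log2 0.39, adjusted p = 0.245), also with no overlap. Lox, which cross-links collagen, had a change of 0.48 on its brightest probe set, also with no overlap, and 0.44 on its other probe set. These 3 of the 34 targets had no overlap, and hypoxic-higher separation held for 2.76% of all tested probe sets. Pfkp, a phosphofructokinase, had a change of 0.35. Eno1, an enolase, read 4454.9, 6358.4, 7014.4 and 8625.6 in hypoxic pools and 4096, 4445.3, 4798.9 and 4227.7 in normoxic pools (log2 0.55, adjusted p = 0.309). Without hypoxic pool 1 Eno1 passed (log2 0.73, limma adjusted p = 0.0425), as it did with the beta-actin ratio in the model (log2 0.71, adjusted p = 0.0487). Igfbp3 was the sixth gene on the higher side, and Ddit4, at a change of -0.36, was the 1 on the lower side; both are named from their counts, after the values were seen. These targets were listed with earlier results of the same arrays known, so their direction is not independent evidence.

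Other sugar transporters and regulators of glucose uptake gave 0 calls among 14 measured genes, 6 of them above 0 and 8 below, with a median of -0.027. Another 7 on the array were under the brightness limit. Akt2, the kinase that passes the insulin signal to GLUT4, had the lowest p. It read 806.7, 1111.2, 1050.5 and 1043.2 in hypoxic pools and 1308.7, 1286.7, 1323 and 1146.6 in normoxic pools, with no overlap (log2 -0.34, limma, adjusted p = 0.395). Its other probe sets had log2 changes of -0.63 and -0.63. Txnip, which restrains glucose uptake, lay between 6138.2 and 6382.1 in hypoxic and between 4686.6 and 5994.5 in normoxic pools, with no overlap and a change of 0.18 (adjusted p = 0.643). Akt2 and Txnip were the 2 of the 14 without overlap, where 5.39% of all tested probe sets had none. Slc2a13, a myo-inositol carrier, had a change of 0.28 at its brightest probe set and 0.03 at the dimmer one. The first of these lay between 0.18 and 0.43 with 1 pool left out. Akt1 had -0.14 on its brightest probe set, between -0.24 and -0.049 with 1 pool left out, and -0.28 and 0.03 on the others. Tbc1d1 had a change of -0.10, between -0.16 and -0.059 with 1 pool left out.

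**Figure D5:**
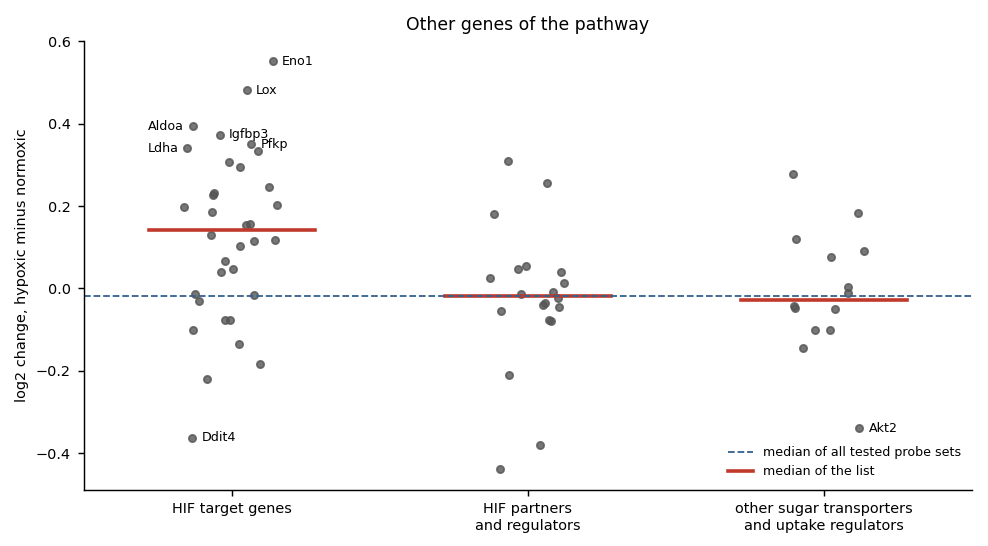
Log2 change, hypoxic minus normoxic, of 34 HIF target genes, 20 partners and regulators and 14 other sugar transporters or uptake regulators, 1 point per gene at its brightest tested probe set, with names where the unadjusted limma p was under 0.05. Red lines are list medians (0.14, -0.019 and -0.027), and the dashed line is the median of all 11106 tested probe sets, -0.019.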

How the data were processed

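Pooled adrenal glands of hypoxic and normoxic rat pups (4 pools each) were read on 1 array per pool. The deposited values are linear probe set intensities, and the trimmed mean of every array (2% off each end) was 500.1, so the authors had scaled the arrays to a common level; the sources used here do not name the software, and cRNA was biotin-labelled per the labels' protocols. Groups came from sample titles. Values under 1 were set to 1, an offset of 16 was added and log2 taken. After 57 control probe sets were removed from 15923, those with a mean log2 value at or above the 30th percentile (a signal of 95.2) were tested, 11106 in all, with limma 3.58.1 in R 4.3.3 (lmFit, then eBayes with a variance trend) and Benjamini-Hochberg adjustment, after the script was tested on simulated data. Differences between 2 members, array measures such as the beta-actin ratio, and correlations used exact permutation tests, two-sided (Python 3.11.15, scipy 1.17.1, pandas 2.3.3). Figures were made with matplotlib 3.10.9. The number of arrays limits the precision. Symbols came from the platform annotation: 12783 probe sets had 1 symbol, 312 several and 2771 none, and all 15 member probe sets matched RefSeq genes of GRCr8. Genes for naming were all members, up to 5 of lowest p in each pathway list and the 2 most like each tested member. From each marker list they were the 2 of lowest p and the 2 brightest, of which not all are printed here. Members and lists were chosen with earlier results of these data known. Alternatives changed the offset, brightness limit, normalization, variance trend, replicate block, RNA integrity and adipose covariates, probe set averaging and the pools used.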

Additional observations from a re-analysis of the deposited data

Results flagged for a closer look

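In 7 of 112 groups of 4 pools examined, 1 pool stood so far from the others that its gap, as a share of the group's range, exceeded Dixon's 95% limit, which chance gives in about 1 in 20 groups, and 7 of 112 is 6.25%. Among the members, Hif1a was low in hypoxic pool 2, at 1139.2, where the nearest hypoxic pool had 1220.9, and Vhl was high in normoxic pool 1, at 1658.4, where the nearest normoxic pool had 1462. Among the other genes, hypoxic pool 3 was low for Crebbp, at 437 (nearest 481.2), and high for the muscle gene Ckm, at 146.9 (nearest 105.9). Normoxic pool 2 was low for Lox, at 319.7 (nearest 399), and high for the complement gene C1qc, at 502.1 (nearest 421.6). Normoxic pool 4 was high for Fcer1g, at 783.7 (nearest 688.2).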

How the results depend on the processing

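The count of member probe sets past the test was 0 under every alternative run, and Hif1a 1387076_at, Epas1 1398333_at, Arnt, Vhl, Slc2a1 and Slc2a3 1372326_at kept their sign under all of theirs. Over all tested probe sets the count of calls, 20, was 18 with the replicate number as a block, 20 with offset 1, 21 with offset 64 or quantile normalization, 37 with the beta-actin ratio in the model (added after the data were seen), and 0 with no brightness limit, no variance trend or the Gapdh ratio (smallest limma adjusted p 0.0575, 0.077 and 0.0982); it ran from 0 to 31 with 1 pool left out, with 31 without hypoxic pool 1, 2 without hypoxic pool 4, 1 without normoxic pool 4 and 0 without any of the others. Deviations of same-numbered pools had r of 0.32, 0.0026, 0.19 and -0.043 for numbers 1 to 4, so pools 1 and 3 correlated best with their own number and pools 2 and 4 did not; the numbers were not taken to pair the samples, and the replicate block called 0 members. With the beta-actin ratio 1 HIF target (Eno1) and 1 chromaffin gene (Npy, 0.62) were called, and without 1 pool 0 to 1 HIF targets. Small values changed sign: Hif3a (below background) minus Epas1 was -0.057 with offset 64, and Epas1 with endothelial markers had r of 0.027 after quantile normalization and 0.53 with probe sets averaged, where Slc2a3 with leukocyte markers had 0.019. With the adipose mean Hif1a 1368149_at was -0.028, Slc2a4 1388958_a_at 0.15 and Slc2a4 1367989_at 0.30. With the beta-actin ratio Epas1 1369703_at was 0.12, Slc2a3 1387707_at 0.067, Slc2a4 1388958_a_at 0.0011, Slc2a4 1367989_at 0.028 and Nr5a1 0.15. With quantile normalization the Slc2a4 probe sets were 0.014 and 0.067, with offset 64 1367989_at was 0.0074, Egln1 1389207_at with probe sets averaged was -0.022, and with the Gapdh ratio Egln3 was -0.0075 and Tnni2 -0.018. With 1 pool left out, Hif3a minus Epas1 ran from -0.12 to 0.26, Egln3 minus Egln1 from -0.067 to 0.17, Slc2a4 minus Slc2a1 from -0.15 to 0.17, Hif3a with adipose markers from -0.085 to 0.32, Epas1 with endothelial markers from -0.31 to 0.045, and Slc2a3 with leukocyte markers from -0.84 to -0.39 (exact permutation, adjusted p = 0.0492 without hypoxic pool 4). The same ranges were -0.33 to 0.041 for Epas1 1369703_at, -0.013 to 0.11 for Egln1 1389207_at, -0.045 to 0.21 for Egln3, -0.18 to 0.060 for Slc2a4 1388958_a_at, -0.26 to 0.21 for Slc2a4 1367989_at, -0.76 to 0.079 for Os9, -0.0085 to 0.19 for Cyp11a1 and -0.46 to 0.15 for Nr5a1. The cause of these shifts was not tested.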
